A study of Mus musculus with 4 samples.

Results

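The Toll-like receptor genes Tlr1, Tlr2, Tlr3, Tlr4, Tlr5, Tlr7, Tlr8, Tlr9 and Tlr13, and the co-receptor gene Cd14, were examined in mouse liver. These 10 genes were taken by their symbols out of the 24346 genes listed in each library, and each symbol was found once. They comprise 4 receptors of the cell surface, 5 receptors of endosomes and 1 co-receptor. RNA sequencing had been performed on liver of male C57BL/6 mice fed a NASH diet (rich in fat, cholesterol and sucrose, with bile salt) for 3 weeks. For the 7KC group (n = 2 libraries) 7-ketocholesterol (7KC), a product of cholesterol oxidation, had been added to this diet, and the control group (n = 2 libraries) received it without 7KC. Both groups were therefore on the steatohepatitis-inducing diet. The labels number the libraries but do not say how many animals each one holds, so the errors and p-values below measure the spread between libraries, which may be technical.

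Toll-like receptors are membrane proteins of innate immunity that recognize molecules of microbes and of damaged cells. Receptors of the cell surface sense lipoproteins, lipopolysaccharide and flagellin, whereas receptors of endosomes sense nucleic acids. Most of them signal through the adaptor MyD88, and the signal ends in NF-κB and interferon regulatory factors. The liver receives portal blood from the gut, and its Kupffer cells, infiltrating monocytes, endothelial cells and hepatocytes carry different sets of these receptors.

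Expression was given as FPKM (fragments per kilobase of exon, scaled to the mapped fragments of the library), so levels can be set side by side between genes. Between 13700000 and 17200000 mapped reads were estimated per library from the steps of the low values. The filter was a mean of 0.5 FPKM over the 4 libraries, which all 10 genes passed. A gene with a control mean under 0.5 FPKM could pass only if higher with 7KC, as for Tlr9 (0.485 FPKM). The direction of Tlr9 therefore followed from the filter. The 10 genes were tested among 12299 genes with limma on log2(FPKM + 0.5). All log2 changes below are 7KC minus control on this scale, which understates changes of low genes. Pairs of values with and without 7KC are given as replicate 1 and then replicate 2 of the 7KC and the control group. The hepatocyte gene Alb, which encodes albumin, was at 18988 to 41547 FPKM in the 4 libraries.

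All 10 genes had a higher mean in the 7KC group, and in 9 of them the 7KC libraries lay above the control libraries without overlap, with Tlr8 the exception. Over all tested genes 25.1% lay above in this way and 27.4% lay below. For 6 of the 10 genes (Tlr1, Tlr2, Tlr4, Tlr9, Tlr13 and Cd14) the means were also at least 2-fold apart, against 6.5% of all tested genes. Only Tlr2 passed an adjusted p of 0.05 with limma, the threshold that 0.48% of the tested genes passed as higher and 0.0244% as lower. At an unadjusted p under 0.05 there were 6 of the 10 genes higher and 0 lower, against 12% of all tested genes higher and 5.81% lower. Later counts of genes without overlap, past the threshold or at an unadjusted p are to be read against these shares. The counts of higher genes among the 10 include Tlr9, whose direction followed from the filter. The median log2 change of the 10 genes was 0.81, and that of all tested genes was -0.03. The direction of each of the 10 genes was the same on the deposited scale, after median-ratio scaling, after quantile normalization and after rescaling to the same sum.

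**Figure D1:**
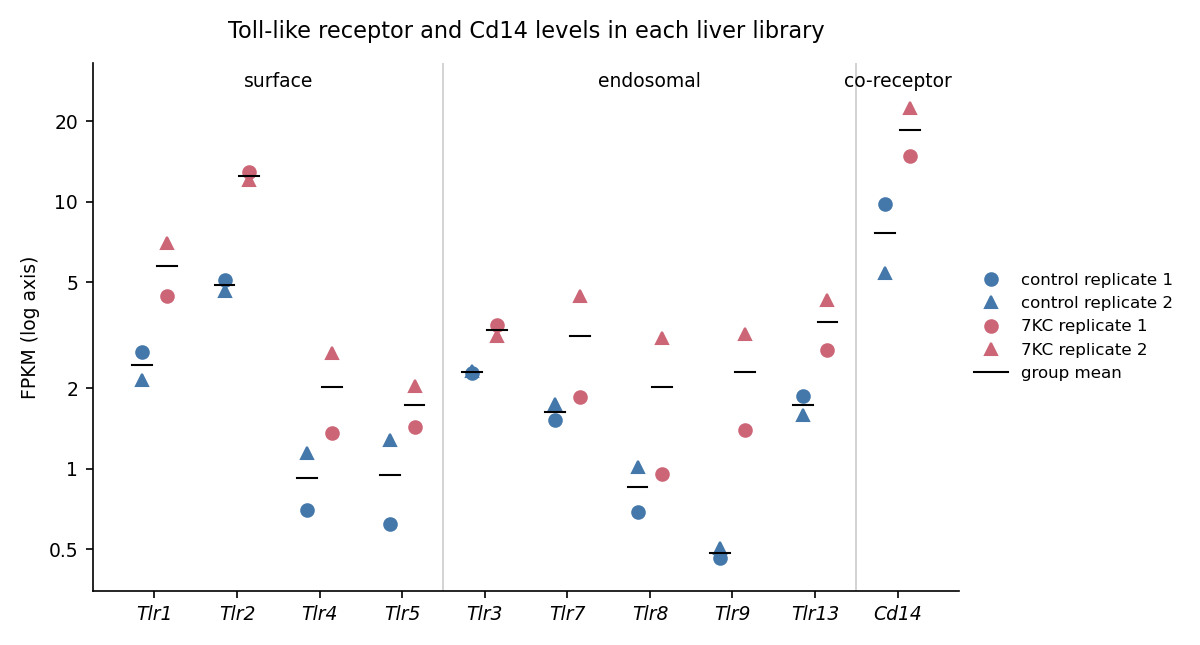
FPKM (vertical, log axis) of each gene in each library, control in blue and 7KC in red, circles for replicate 1, triangles for replicate 2 and bars for group means. Both 7KC points stand above both control points for each gene except Tlr8, whose 7KC replicate 1 (0.959 FPKM) lies below control replicate 2 (1.02 FPKM).

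Among the surface receptors, Tlr2 was the most abundant and the only one that passed the test. TLR2 recognizes bacterial lipoproteins as a pair with TLR1 or TLR6. Tlr2 (minus strand of chromosome 3, 83836272 to 83841767, GRCm38) was at 5.11 and 4.62 FPKM without 7KC and at 12.9 and 12.1 FPKM with 7KC. The replicates of each group were nearly level, with the higher library at 1.1 times the lower in the control group and 1.07 times in the 7KC group. Tlr2 rose from 4.87 ± 0.343 to 12.5 ± 0.566 FPKM (SD, n = 2 each), 2.58-fold, with a log2 change of 1.28 ± 0.12 (SE, with adjusted p 0.0313 by limma). A larger log2 change was seen in 2.11% of all tested genes. The call was lost without control replicate 2 (log2 change 1.22, limma adjusted p 0.0824), without 7KC replicate 1 (1.24, 0.152) and without 7KC replicate 2 (1.33, 0.238). It was also lost when no gene was filtered (limma adjusted p 0.119) and when the prior variance did not follow expression (0.0518), and over its 13 alternatives the adjusted p ranged from 0.0129 to 0.238.

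Tlr1 encodes the partner of TLR2 in the recognition of triacylated lipoproteins. Tlr1 (minus strand of chromosome 5, 64924679 to 64933563) was at 2.75 and 2.15 FPKM without 7KC and at 4.45 and 7.02 FPKM with 7KC. The groups did not overlap, and the 7KC libraries were 1.58-fold apart. Its means were 2.45 ± 0.424 and 5.73 ± 1.82 FPKM (SD, n = 2 each), a log2 change of 1.06 (SE 0.24, 95% interval 0.45 to 1.67, limma adjusted p 0.119). It lies beside Tlr6 (64952031 to 64960097 on the same strand), its close relative in sequence. Reads of the pair could have been exchanged, since the handling of shared reads is not given in the sources used here.

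The receptors for lipopolysaccharide and flagellin, TLR4 and TLR5, were the least abundant of the surface class. Tlr4 (plus strand of chromosome 4, 66827584 to 66930284) was at 0.701 and 1.15 FPKM without 7KC and at 1.36 and 2.71 FPKM with 7KC. Its log2 change was 0.80 (SE 0.32, 95% interval -0.02 to 1.61, limma adjusted p 0.288). The gap between the groups was narrow, as the upper control library stood close to the lower 7KC library. Without 7KC replicate 2 the log2 change of Tlr4 was the lowest of its alternatives, at 0.40. Tlr5 (plus strand of chromosome 1, 182954788 to 182976044) was at 0.621 and 1.28 FPKM without 7KC and at 1.43 and 2.05 FPKM with 7KC. Its log2 change of 0.65 (SE 0.29, 95% interval -0.07 to 1.38, limma adjusted p 0.318) had an interval that included 0, like that of Tlr4. The control libraries of Tlr5 were 2.05-fold apart, more than the group means (1.83-fold), and its lowest log2 change, 0.32, came without control replicate 1.

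The sequence upstream of Tlr2 (RefSeq, GRCm38.p6, chr3:83841768-83841858, minus strand) is shown because Tlr2 is the gene that passed the test. It is the part of the 250 bases before the RefSeq start site that lies outside exons annotated in GENCODE M21. Capitals mark 2 overlapping matches to the NF-κB consensus, whose first bases lie 173 and 172 bases before the start site. This consensus was found on either strand in 7.25% of 32851 mouse promoter windows of the same length.
Tlr2: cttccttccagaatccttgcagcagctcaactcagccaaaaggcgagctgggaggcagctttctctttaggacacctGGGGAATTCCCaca

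The endosomal receptors had lower levels than Tlr2, and none passed the test. An unadjusted p under 0.05 with limma was seen in 3 of 5 (Tlr3, Tlr9 and Tlr13), all higher, against 12% of all tested genes. Of these, the direction of Tlr9 followed from the filter, so its place in this count is not free. Tlr9, the receptor for unmethylated CpG DNA, had the largest log2 change of the 10 genes at the pseudocount of 0.5 FPKM, but not at 1 FPKM (1.10, against 1.21 for Tlr2). Tlr9 (plus strand of chromosome 9, 106222598 to 106226883) was at 0.462 and 0.507 FPKM without 7KC and at 1.4 and 3.2 FPKM with 7KC. The lowest member in the control group thus stood above Tlr4, Tlr8 and Tlr5 by its mean in the 7KC group, although its libraries overlapped theirs there. Its means were 0.485 ± 0.0318 and 2.3 ± 1.27 FPKM (SD, n = 2 each), 4.75-fold apart, and its log2 change was 1.43 (SE 0.34, 95% interval 0.57 to 2.29, limma adjusted p 0.128). The control values correspond to about 26.1 and 22.9 reads, where the counting error alone can reach 20.9% of the value. Its log2 change was 1.93 with a pseudocount of 0.1 FPKM, 1.91 without 7KC replicate 1 and 0.95 without 7KC replicate 2.

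TLR13 recognizes bacterial ribosomal RNA and is present in mice but not in humans. Tlr13 (plus strand of chromosome X, 106143204 to 106160493) was at 1.87 and 1.59 FPKM without 7KC and at 2.78 and 4.29 FPKM with 7KC. Its log2 change was 0.83 (SE 0.22, 95% interval 0.27 to 1.40, limma adjusted p 0.158). The groups were apart, and leaving out 1 library at a time gave positive changes each time. Tlr3, the receptor for double-stranded RNA, showed the smallest log2 change of the 10 genes with all 4 libraries, and its control replicates were the closest of the 10 genes (1.01-fold apart, and 1.1-fold apart with 7KC). Tlr3 (minus strand of chromosome 8, 45395665 to 45411080) was at 2.29 and 2.32 FPKM without 7KC and at 3.45 and 3.15 FPKM with 7KC. The ratio of the means was 1.43, and the log2 change was 0.43 (SE 0.14, 95% interval 0.09 to 0.78, limma adjusted p 0.203). A larger log2 change was seen in 13.6% of all tested genes, the highest such share among the 10 genes. The antisense gene Gm45542 overlaps an exon of Tlr3, and whether reads were counted by strand is not given in the sources used here.

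Tlr7 and Tlr8, receptors for single-stranded RNA that neighbor each other on chromosome X, had intervals that included 0 and a high value in a single library. Tlr7 (167304929 to 167330558, minus strand) was at 1.52 and 1.75 FPKM without 7KC and at 1.86 and 4.42 FPKM with 7KC. The lower 7KC library stood just above the control libraries, and the other was 2.37 times higher. The log2 change of Tlr7 was 0.68 (SE 0.36, 95% interval -0.23 to 1.58, limma adjusted p 0.381), and it was 0.15 without 7KC replicate 2 and 1.21 without 7KC replicate 1. Tlr8 (167242696 to 167264329, minus strand) was at 0.688 and 1.02 FPKM without 7KC and at 0.959 and 3.1 FPKM with 7KC. Here the groups overlapped. The log2 change of Tlr8 was 0.77 (SE 0.45, 95% interval -0.36 to 1.90, limma adjusted p 0.421), and it was 0.12 without 7KC replicate 2 and 1.42 without 7KC replicate 1.

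**Figure D2:**
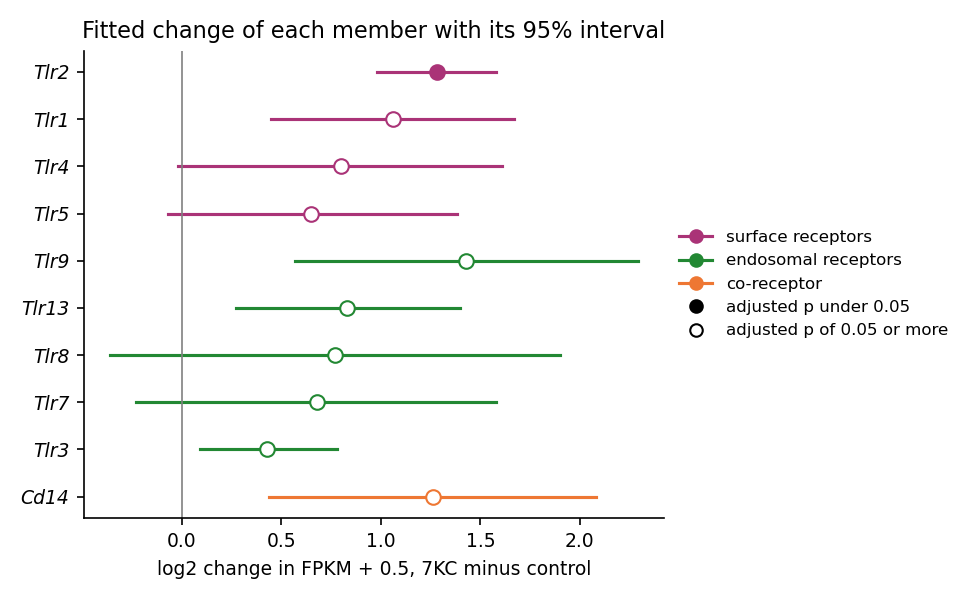
Log2 change in FPKM + 0.5 (horizontal, 7KC minus control, n = 2 libraries each) of each gene with its 95% interval from limma, by class. All 10 estimates lie to the right of 0, the interval of Tlr2 (0.98 to 1.58) is the narrowest, and those of Tlr4, Tlr5, Tlr7 and Tlr8 include 0.

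For the endosomal class, the same RefSeq windows (GRCm38.p6, annotated exons left out) are shown for the gene with the largest change (Tlr9, chr9:106222348-106222597, plus strand), for Tlr13, whose groups did not overlap (chrX:106143025-106143203, plus strand), and for Tlr8, whose groups overlapped (chrX:167264330-167264579, minus strand). Capitals in Tlr9 mark a match to the PU.1 core GAGGAA, 112 bases before the start site, and a match to the AP-1 consensus TGANTCA, 58 bases before it. In Tlr13 they mark a PU.1 match 83 bases before the start site. In Tlr8 they mark a PU.1 match 77 bases before the start site and a match to the interferon regulatory factor core GAAANNGAA 67 bases before it, both read on the opposite strand. Of the 32851 windows of all promoters, 23.3% held the PU.1 core, 6.75% the AP-1 consensus and 7.13% the interferon regulatory factor core, on either strand. Windows were examined for 7 of the 10 genes (all but Tlr4, Tlr7 and Cd14). Among these 7 genes, 4 held the PU.1 core, 2 the NF-κB consensus (Tlr2 and Tlr3, the latter within an annotated exon), 1 the AP-1 consensus and 1 the interferon regulatory factor core. These matches describe the sequence only. No binding was measured.
Tlr9: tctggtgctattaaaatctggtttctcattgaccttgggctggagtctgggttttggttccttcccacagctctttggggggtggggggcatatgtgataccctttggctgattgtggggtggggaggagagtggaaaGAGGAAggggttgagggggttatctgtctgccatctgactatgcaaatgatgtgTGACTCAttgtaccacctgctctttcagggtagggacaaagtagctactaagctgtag
Tlr13: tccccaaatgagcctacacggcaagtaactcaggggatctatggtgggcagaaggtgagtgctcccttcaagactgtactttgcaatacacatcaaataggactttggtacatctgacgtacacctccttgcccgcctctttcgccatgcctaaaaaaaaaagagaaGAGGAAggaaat
Tlr8: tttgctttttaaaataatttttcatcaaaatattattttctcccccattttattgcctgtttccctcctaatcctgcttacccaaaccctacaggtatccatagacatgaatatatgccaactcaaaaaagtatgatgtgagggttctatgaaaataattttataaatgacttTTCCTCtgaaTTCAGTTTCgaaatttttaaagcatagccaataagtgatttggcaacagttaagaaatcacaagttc

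CD14 is a co-receptor anchored in the membrane of monocytes and macrophages that passes lipopolysaccharide to the TLR4 complex and also assists TLR2. Cd14 was the most abundant of the 10 genes in both groups. It was at 9.81 and 5.41 FPKM without 7KC and at 14.8 and 22.4 FPKM with 7KC. The groups did not overlap, but the replicates were 1.81-fold apart in the control group and 1.52-fold apart in the 7KC group. Its means were 7.61 ± 3.11 and 18.6 ± 5.41 FPKM (SD, n = 2 each), a log2 change of 1.26 (SE 0.32, 95% interval 0.44 to 2.08, limma adjusted p 0.145). It passed without control replicate 1 (log2 change 1.66, limma adjusted p 0.042) and in none of the other alternatives, where the adjusted p reached 0.591.

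By level per gene length, the order in the control group was Cd14, Tlr2, Tlr1, Tlr3, Tlr13, Tlr7, Tlr5, Tlr4, Tlr8 and Tlr9. The libraries of neighbors in this order overlapped between Tlr1 and Tlr3, between Tlr13 and Tlr7, between Tlr5 and Tlr4, and between Tlr4 and Tlr8. In the 7KC group Cd14, Tlr2, Tlr1 and then Tlr13 stood apart from one another, and from Tlr13 down to Tlr5 each neighbor overlapped the next. The highest value was in 7KC replicate 2 for 8 of the 10 genes and in 7KC replicate 1 for Tlr2 and Tlr3.

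The surface and the endosomal receptors were then compared as classes. The summed FPKM of the 4 surface receptors was 9.18 and 9.19 without 7KC and 20.2 and 23.9 with 7KC. For the 5 endosomal receptors it was 6.84 and 7.19 without 7KC and 10.5 and 18.2 with 7KC. Both sums were thus higher in each 7KC library, and the endosomal sum was the less even within the 7KC group. The median log2 change was 0.93 for the surface receptors and 0.77 for the endosomal receptors. Without 7KC replicate 2 these medians were 0.60 and 0.49, and without 7KC replicate 1 both were 1.21.

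The balance between the classes did not separate the groups. Surface receptors made up 57.3% and 56.1% of the summed FPKM of the 9 receptors without 7KC and 65.9% and 56.8% with 7KC. On the log2(FPKM + 0.5) scale the surface mean exceeded the endosomal mean by 0.37 and 0.46 without 7KC and by 0.69 and 0.37 with 7KC. The average difference between the groups was 0.12, below the pooled SD between replicates of 0.17, and it was -0.04 without 7KC replicate 1 and 0.28 without 7KC replicate 2. An exact permutation test of 2 against 2 libraries cannot give a 2-sided p below 0.33 and so cannot reach 0.05, and no test was made of this score.

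Levels of cell type markers were set beside those of the 10 genes. Of 9 monocyte and macrophage markers, 7 had both 7KC libraries above both control libraries, 0 passed the limma threshold (7 had an unadjusted p under 0.05 and were higher, against 12% of all tested genes), and the median log2 change was 1.59. Their summed FPKM was 413 to 643 in the control group and 1182 to 1865 in the 7KC group, and none was listed at 0. For 7 Kupffer cell markers the sum was 387 to 456 and 445 to 597 FPKM and overlapped, with a median log2 change of 0.02. The Kupffer cell list was split, with 3 genes above without overlap (Timd4, Marco and Cd5l, at ratios of 1.96, 1.89 and 1.65), 1 below (Vsig4, 0.767) and 0 past the threshold. The 5 plasmacytoid dendritic cell markers, of a cell type known for Tlr7 and Tlr9, summed to 1.28 to 1.74 and 3.88 to 3.92 FPKM. Of these, 3 were below the filter, with 7KC values above the control values, and Klk1 was listed at 0 in a control library. Of the 2 tested, Spib overlapped between the groups. Cox6a2, at 0.13 and 0.162 FPKM without 7KC and 1.79 and 1.13 FPKM with 7KC, made up much of the difference in the sum. It passed the filter only through its 7KC libraries. Hepatocyte markers had both 7KC libraries below both control libraries in 5 of 6 genes, with a median log2 change of -0.52. In bulk tissue more cells of a type and more RNA per cell cannot be told apart, and the part of these cell types in the changes of the 10 genes was not tested.

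Among the other immune lists the T and NK cell markers were the furthest apart. The 6 T and NK cell markers summed to 9.94 to 13.5 FPKM in the control group and 28.9 to 32.9 FPKM in the 7KC group, and 5 of 5 tested lay above without overlap. The sums were 2.39 to 7.25 and 6.56 to 6.75 FPKM for 6 B cell markers (Pax5 listed at 0 in a control library), 18 to 32.6 and 35.1 to 35.8 FPKM for 7 neutrophil markers, and 4.56 to 5.67 and 7.82 to 7.83 FPKM for 6 conventional dendritic cell markers. Of the tested genes in these 3 lists, 1 of 3, 1 of 4 and 2 of 4 lay above without overlap, against 25.1% of all tested genes. Most of the neutrophil sum came from S100a8, whose groups overlapped, and S100a9. The neutrophil marker Camp lay below without overlap (ratio of the means 0.66), as did Ngp (0.128), which was below the filter. Sinusoidal endothelial (98.5 to 120 and 88.4 to 127 FPKM), stellate (167 to 175 and 124 to 153 FPKM) and cholangiocyte markers (3.67 to 3.73 and 3.04 to 4.66 FPKM) had median log2 changes of -0.17, -0.13 and 0.04.

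Set against the macrophage markers of the same library, the 7KC libraries did not stand above the control libraries. The mean log2 level of the surface receptors minus that of the 9 monocyte and macrophage markers was -2.48 and -1.79 without 7KC and -2.45 and -2.65 with 7KC. For Cd14 the difference was -0.27 and -0.56 without 7KC and -0.49 and -0.53 with 7KC, both 7KC values within the control range. For the endosomal receptors it was -2.85 and -2.25 without 7KC and -3.15 and -3.02 with 7KC, so both 7KC values were the lower. Set against the Kupffer cell markers instead, both classes stood higher in the 7KC libraries. The mean log2 level of those markers was 5.37 and 5.50 without 7KC and 5.50 and 5.84 with 7KC. That of the surface receptors was 1.15 and 1.33 without 7KC and 1.97 and 2.40 with 7KC. For the endosomal receptors it was 0.79 and 0.87 without 7KC and 1.28 and 2.03 with 7KC. Both comparisons were chosen after the values had been seen, and no test was made of them.

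**Figure D3:**
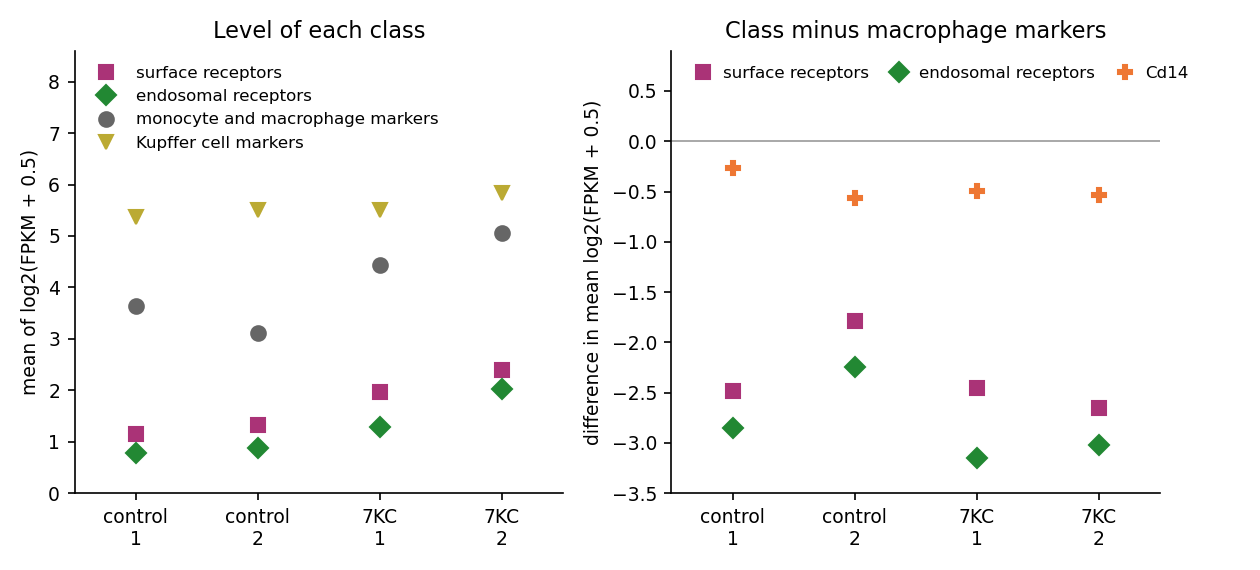
Left, mean log2(FPKM + 0.5) of the surface receptors, the endosomal receptors, the monocyte and macrophage markers and the Kupffer cell markers in each library. Right, the surface receptors, endosomal receptors and Cd14 minus the macrophage markers, where the surface and Cd14 values of the groups overlap and the endosomal values of the 7KC libraries (-3.15 and -3.02) lie below those of the control libraries.

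Next, the other genes of Toll-like receptor signaling were examined in 8 lists. Of 67 genes, all were matched to a listed symbol and 61 were tested. These lists were chosen with earlier results of the data known. Of the tested genes 39 lay above without overlap and 6 below, where all tested genes gave 25.1% and 27.4%. The 39 include Tlr6 and Tlr11, whose direction followed from the filter. With limma, 2 passed as higher (Irf8 and Acod1) and 0 as lower, and at an unadjusted p under 0.05 there were 30 higher and 1 lower, where all tested genes gave 12% and 5.81%. The median log2 change was 0.06 for the kinases and ligases, 0.68 for the transcription factors and 1.58 for the target genes, and these medians were not tested against each other.

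The other Toll-like receptor genes, Tlr6, Tlr11 and Tlr12, each had 7KC values above the control values, and 0 passed (3 with an unadjusted p under 0.05). Tlr6 and Tlr11 had control means of 0.354 and 0.436 FPKM, so their direction followed from the filter, as for Tlr9. Tlr12, a receptor for profilin of parasites, was at 2.54 and 2.89 FPKM without 7KC and at 5.31 and 7.14 FPKM with 7KC, a log2 change of 1.05 ± 0.18 (SE, with adjusted p 0.0704 by limma). Tlr11 had a log2 change of 0.94 ± 0.18 (SE, with adjusted p 0.0934 by limma), with about 24 and 16.9 reads without 7KC. Tlr6, the neighbor of Tlr1, is named for that place and was picked out after its values had been seen. It was at 0.558 and 0.151 FPKM in the control libraries, about 33.4 and 7.22 reads, and at 0.88 and 1.18 FPKM in the 7KC libraries.

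Of 6 genes for accessory proteins of the surface receptors, 3 lay above without overlap, 1 below and 0 passed (3 with an unadjusted p under 0.05, all higher). Cd180 and Ly86, which form a receptor complex related to TLR4 on B cells and myeloid cells, had log2 changes of 1.53 ± 0.24 (SE, with adjusted p 0.0619 by limma) and 1.22 ± 0.19 (SE, with adjusted p 0.0637 by limma). Ly96 and Lbp, which bind lipopolysaccharide and were picked out after their values had been seen, had smaller changes. Ly96, the subunit that holds lipopolysaccharide on TLR4, was at 10.8 and 10.7 FPKM without 7KC and at 11.7 and 10.2 FPKM with 7KC. Lbp, the plasma protein that delivers lipopolysaccharide to CD14, was at 84 and 86 FPKM without 7KC and at 82.8 and 80.1 FPKM with 7KC. Ly96 thus overlapped between the groups. Both 7KC values of Lbp lay below its control values, but its log2 change of -0.06 (SE 0.11) turned to 0.14 after rescaling to the same sum and to 0.07 after quantile normalization. That of Ly96 was 0.02 (SE 0.12), and -0.08 without 7KC replicate 1.

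Of 11 tested genes for folding of the receptors and processing in endosomes, 6 lay above without overlap, 2 below and 0 passed (4 with an unadjusted p under 0.05, all higher). Pld4, an endosomal nuclease that degrades TLR9 ligands, had a log2 change of 1.24 ± 0.15 (SE, with adjusted p 0.0512 by limma), and Slc15a3, a transporter of endolysosomes, had 1.29 (SE 0.19, 0.0599). Unc93b1, the chaperone that carries the endosomal receptors to their compartment, was also picked out after its values had been seen. It was at 37.8 and 34.4 FPKM without 7KC and at 61.5 and 81.1 FPKM with 7KC, with a log2 change of 0.96 ± 0.16 (SE, with adjusted p 0.0704 by limma).

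Among the adaptors, 3 of 5 tested genes lay above without overlap and 0 passed (2 with an unadjusted p under 0.05). Myd88 was at 13.6 and 12 FPKM without 7KC and at 17.9 and 15.3 FPKM with 7KC, a log2 change of 0.36 ± 0.13 (SE, with adjusted p 0.257 by limma). Ticam2, the adaptor that links TLR4 to interferon induction, had means 2.71-fold apart (adjusted p 0.215 by limma). Of the 13 kinases and ubiquitin ligases, 5 lay above without overlap and 0 passed (1 with an unadjusted p under 0.05). The smallest p-values were those of Ikbke, with a log2 change of 0.49 ± 0.12 (SE, with adjusted p 0.129 by limma), and Traf3, with 0.27 (SE 0.14, 0.361).

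Transcription factors lay above without overlap in 8 of 9 genes, 1 lay below and 1 passed (6 with an unadjusted p under 0.05, all higher). The gene below was Irf3, at 27.7 and 28.2 FPKM without 7KC and at 25.7 and 22.4 FPKM with 7KC. Irf8, a factor of monocyte and dendritic cell development, rose from 10.6 and 8.16 FPKM in the control libraries to 26.8 and 26.2 FPKM in the 7KC libraries, a log2 change of 1.46 ± 0.15 (SE, with adjusted p 0.0369 by limma). The call was lost without control replicate 2 (limma adjusted p 0.0676), without 7KC replicate 1 (0.159), without 7KC replicate 2 (0.289), with no filter (0.12) and with no trend in the prior variance (0.0603), among other losses in a range of 0.013 to 0.289 over its alternatives. Irf7, which drives interferon genes below TLR7 and TLR9, had a log2 change of 1.06 ± 0.16 (SE, with adjusted p 0.0619 by limma). Of 7 tested inhibitors, 4 lay above without overlap, 2 lay below and 0 passed (4 higher and 1 lower with an unadjusted p under 0.05). Tnfaip3, an enzyme that ends NF-κB signaling, had a log2 change of 1.22 ± 0.16 (SE, with adjusted p 0.0534 by limma), and Socs1, an inhibitor of cytokine signaling, had 2.12 (SE 0.43, 0.0985).

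Target genes had the largest median log2 change of the 8 lists, 1.58, and all 7 tested genes lay above without overlap with means at least 2-fold apart. Acod1 (listed as Irg1), the enzyme that makes itaconate in activated macrophages, rose from 4.05 and 2.3 FPKM in the control libraries to 17.9 and 16 FPKM in the 7KC libraries, a log2 change of 2.29 ± 0.25 (SE, with adjusted p 0.0423 by limma). Its call was lost without 7KC replicate 1 (limma adjusted p 0.159), without 7KC replicate 2 (0.294), with a pseudocount of 0.1 FPKM (0.0506), with no filter (0.142), after quantile normalization (0.0525) and with no trend in the prior variance (0.0603), among other losses in a range of 0.00942 to 0.294. Cxcl10, an interferon-induced chemokine, had a log2 change of 2.37 ± 0.32 (SE, with adjusted p 0.0534 by limma). The cytokine genes Il6, Il12b and Ifnb1 were below the filter, and Ifnb1 was listed at 0 in all 4 libraries. The groups overlapped for Il6 (0.199 and 0.0823 FPKM without 7KC, 0.083 and 0.0824 FPKM with 7KC). They also overlapped for Il12b (0.278 and 0.0941 FPKM without 7KC, 0.316 and 0.251 FPKM with 7KC).

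**Figure D4:**
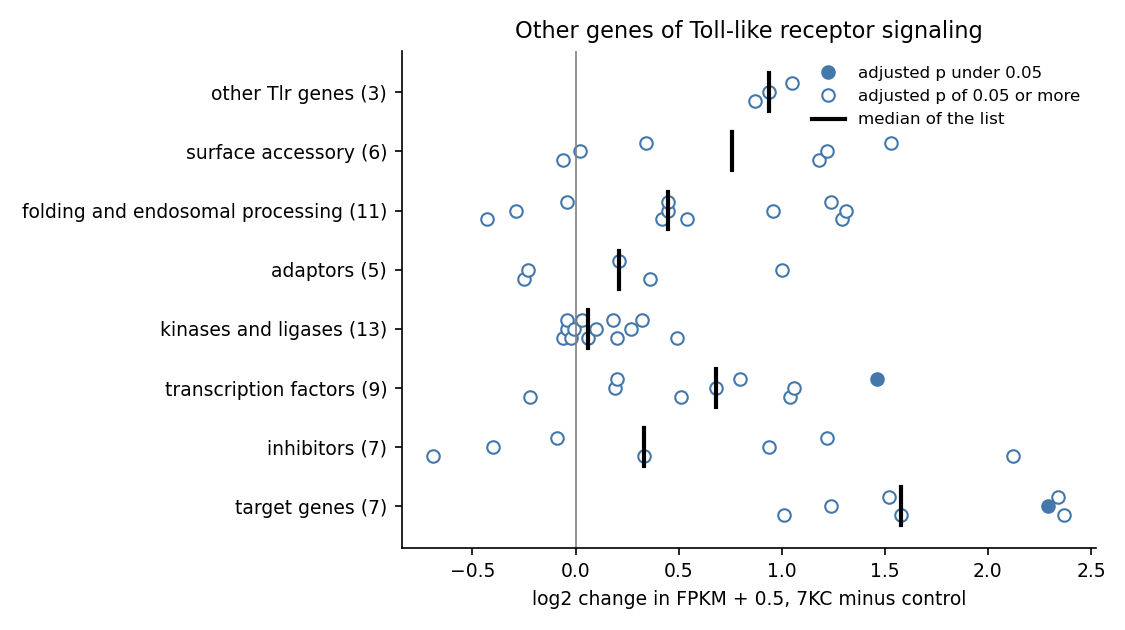
Log2 change in FPKM + 0.5 (horizontal, 7KC minus control) of each tested gene in the 8 lists, with the number of tested genes in brackets and a bar at the median. The 2 filled points are Irf8 and Acod1, the genes past the threshold, and the kinases and ligases cluster around 0 (median 0.06).

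Genes with the values most like those of the member of each class with the highest mean over the 4 libraries (Tlr2, Tlr3 and Cd14, although Tlr13 stood above Tlr3 in the 7KC group) were sought among the other 12289 tested genes, by the root-mean-square difference of centered log2 values over the 4 libraries. Nearest to Tlr2 were Naaa (0.0122), Pycard (0.0283) and Hmgb2 (0.0445). Naaa, for example, was at 4.64 and 4.26 FPKM without 7KC and at 11.7 and 11.2 FPKM with 7KC. Nearest to Tlr3 were Faap20 (0.0202), Chst2 (0.0214) and Ccnd2 (0.0218). For Cd14 they were Evl (0.0346), Bcl2a1d (0.0441), a member of a family of near-identical copies, and Sash3 (0.0487). With 4 libraries many genes share such a pattern, and no test was made of it.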

How the data were processed

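Liver RNA of 4 samples (2 per group, as labelled) had been sequenced by the authors from stranded messenger RNA libraries in single-end mode. The submitters' processing notes name the build mm10 and the tools TopHat2 2.1.1, Bowtie2 2.2.8, SAMtools 0.1.18 and Cuffdiff 2.2.1, without their roles. The study's methods give TopHat with Bowtie2 for mapping and Cufflinks for FPKM, partly in other versions. The authors deposited FPKM, with each symbol listed once per library, so abundant genes that change move all others. Annotation, multi-read handling and scaling between libraries are not given in the sources used here.

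Depth was estimated as the smallest number of mapped reads at which values of up to 10 reads from genes with a single transcript (GENCODE M21, GRCm38, 200 bases taken off as fragment length) became whole. At these depths 74.6% to 76.9% lay within 0.1 of a whole read, against a median of 12.8% to 13.9% over all depths tried. Reads per gene are approximate, since they assume the longest transcript.

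After removal of genes with a mean below 0.5 FPKM, limma 3.58.1 (R 4.3.3) was applied to log2(FPKM + 0.5), with a prior variance following mean expression and group as the only term (2 residual and 3.27 prior degrees of freedom), two-sided, with Benjamini-Hochberg adjustment over all 12299 genes. The fit was tested on simulated data. Other steps used Python 3.11.15 with pandas 2.3.3. Members, lists and tests were chosen with earlier results of these data known. Named pathway genes were those past the threshold and the 2 of smallest p per list. Tlr6, Irf3, Ly96, Lbp and Unc93b1, and the Kupffer cell markers given with values, were added after their values had been seen. Irf3 and the target genes below the filter were given without alternatives. Acod1 was matched through its older symbol, and the marker Ly6g was not matched. Alternatives were other pseudocounts, filters and scalings, no trend, a replicate block and leaving out each library.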

Additional observations from a re-analysis of the deposited data

How the results depend on the processing

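Of 130 alternative values for the 10 genes, 123 kept their direction and their side of the threshold, 6 (all Tlr2) fell below it, 1 (Cd14) rose past it and 0 changed sign. Against 1 member called, there were 0 without a filter and 0 without a trend in the prior variance, and 0 to 2 when 1 library was left out (2, Tlr2 and Cd14, without control replicate 1). Against 2 pathway genes called as higher, a pseudocount of 0.1 FPKM gave 1, no filter 0, rescaling to the same sum (TPM) 19, quantile normalization 1 and no trend 0, and leaving out 1 library gave 0 to 16 higher and 0 to 1 lower, both maxima without control replicate 1. Over all genes, against 59 higher and 3 lower, raising the pseudocount to 1 FPKM gave 111 higher, no filter 0 and 1, median-ratio scaling 94 higher, TPM 402 and 7, and no trend 39 and 1. Without control replicate 1 there were 389 higher and 52 lower, without control replicate 2 there were 19 and 4, without 7KC replicate 1 there were 4 and 1, and without 7KC replicate 2 there were 2 and 2. TPM moved the median of all genes from -0.03 to 0.17. Without a filter 16858 genes were tested. The cause of these shifts was not tested. Of 258 alternative values for 20 named pathway genes, 224 kept their direction and side, 13 (Irf8 and Acod1) fell below the threshold, 18 rose past it and 3 changed sign (Lbp at 0.14 under TPM and 0.07 under quantile normalization, Ly96 at -0.08 without 7KC replicate 1, in a range of -0.08 to 0.12 when 1 library was left out). The endosomal median ranged from 0.49 to 1.21 when 1 library was left out. The surface median stayed within 1 SD (0.34) of its value under each alternative run, as did the difference between the classes (SD 0.17), although its sign turned to -0.04 without 7KC replicate 1.

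The replicate numbers do not pair the libraries by any label, and the deviations of same-numbered libraries had a correlation of -0.141 over genes. With the replicate number as a block, 0 members, 0 pathway genes and 0 genes in all were called as higher, and 0 as lower, so that Tlr2, Irf8 and Acod1 each had a limma adjusted p of 0.151 (1851 with an unadjusted p under 0.05). The crossed pairing, added after the data were seen, gave 3 members, 18 pathway genes and 551 genes in all as higher, and 37 as lower.

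Depth is low for Tlr6, Tlr11 and Tlr9, at about 7.22, 16.9 and 22.9 reads in control replicate 2.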

Other observations

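Within the 7KC group the receptors and the target genes did not follow the same library. Of the 10 members, 8 were higher in 7KC replicate 2 than in replicate 1 (median log2 difference 0.60), as were 8 of 9 monocyte and macrophage markers (0.67) and 9 of 11 genes of folding and endosomal processing (0.40). Markers of other cells were also higher there, in 6 of 6 genes for sinusoidal endothelial cells (0.49), 3 of 3 for cholangiocytes (0.48), 5 of 6 for stellate cells (0.32) and 6 of 7 for Kupffer cells (0.32), whereas hepatocyte markers were higher in 0 of 6 (-0.34) and T and NK cell markers in 1 of 5 (-0.22). Of the 7 tested target genes, 5 were lower in replicate 2 (-0.16), as were 7 of 9 transcription factors (-0.06). Over all tested genes 5861 were higher and 6429 lower in replicate 2, with a median of -0.01. Cxcl10 was at 79.8 FPKM in replicate 1 and 42.5 FPKM in replicate 2, and Socs1 at 18.8 and 7.17 FPKM, whereas Tlr9 was at 1.4 and 3.2 FPKM and Tlr7 at 1.86 and 4.42 FPKM. These orders compare 1 library with another, were noticed in the data and were not tested.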
